A study of Homo sapiens with 12 samples.

Results

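The fibrinogen gene cluster on chromosome 4 holds the genes of the 3 fibrinogen chains: FGA (alpha), FGB (beta) and FGG (gamma). Its members here were the listed regions of 3 histone marks that overlapped chr4:155440000-155580000 (GRCh37). This window was set by position and not by any measured value, though it was chosen with earlier results of these data known. The members numbered 53 of the 273551 regions listed on chromosomes 1 to 22 and X. Of the 53, 18 were H3K27ac, 31 H3K4me1 and 4 H3K4me3. FGB spans 155484132 to 155493915 on the plus strand. FGA spans 155504278 to 155511897 and FGG 155525286 to 155533902, both on the minus strand.

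The lists came from chromatin immunoprecipitation and sequencing (ChIP-seq) of untreated HepG2, a long-established human liver cancer cell line. The labels give 12 libraries, 3 for each mark and 3 for a control that is titled input while its antibody is an anti-mouse immunoglobulin. Each mark has 1 list pooled over its libraries, going by its name, so the spread between replicates and the depth of each library are unknown. No difference was tested, and each value is a property of a pooled list. The series' design text gives the purpose as ranking DNA variants for a causal role by the marks around them.

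Fibrinogen is the soluble plasma protein that thrombin cuts into fibrin, the mesh of a blood clot. Each molecule pairs 3 different chains, which hepatocytes assemble and secrete, and all 3 genes belong to the acute-phase response, in which interleukin 6 raises their transcription. Hepatocyte nuclear factor 1 (HNF1) and C/EBP factors are known to act at fibrinogen promoters. H3K4me3 is a methylation found mainly at promoters, H3K4me1 a methylation of enhancers and promoter flanks, and H3K27ac an acetylation of active promoters and enhancers.

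The promoters are shown because the marks differed at the 3 starts. These are the 250 bases before the RefSeq start of each gene, in GRCh38.p14, 5′ to 3′ in the direction of transcription. FGB had 2 entries in the RefSeq promoter table, and the most upstream one was used. Capitals mark matches on either strand to CTGGGA (a core of interleukin 6 response elements), GTTAAT (part of an HNF1 site) and TTNNGNAA (C/EBP). TATAAA was searched in the same way and had no match in these 3 windows. No matches overlapped.
FGB, chr4:154562730-154562979, plus strand: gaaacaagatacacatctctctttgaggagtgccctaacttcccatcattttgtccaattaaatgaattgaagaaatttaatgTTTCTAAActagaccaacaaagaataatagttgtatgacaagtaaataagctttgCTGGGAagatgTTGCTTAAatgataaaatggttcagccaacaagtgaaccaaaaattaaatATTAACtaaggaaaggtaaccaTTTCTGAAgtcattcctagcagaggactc
FGA, chr4:154590743-154590992, minus strand: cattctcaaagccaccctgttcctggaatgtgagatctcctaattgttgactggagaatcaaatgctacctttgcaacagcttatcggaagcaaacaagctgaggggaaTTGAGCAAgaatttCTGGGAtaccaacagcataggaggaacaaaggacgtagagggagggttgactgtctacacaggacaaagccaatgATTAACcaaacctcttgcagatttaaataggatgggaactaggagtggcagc
FGG, chr4:154612657-154612906, minus strand: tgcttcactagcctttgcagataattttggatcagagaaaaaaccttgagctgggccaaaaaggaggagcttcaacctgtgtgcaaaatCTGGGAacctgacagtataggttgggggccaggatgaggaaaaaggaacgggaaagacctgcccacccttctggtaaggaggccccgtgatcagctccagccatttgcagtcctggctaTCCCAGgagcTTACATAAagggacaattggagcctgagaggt

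All 3 promoters held CTGGGA and TTNNGNAA, which 28.7% and 33.2% of the 35116 RefSeq promoter windows of this length held. CTGGGA lay 112 to 107 bases before the start of FGB, 127 to 122 before that of FGA, and in FGG both 161 to 156 and, on the other strand, 42 to 37 bases before it. The letters ATTAAC, the reverse complement of GTTAAT, lay at almost the same place in FGB (51 to 46 bases before the start) and FGA (52 to 47), and FGG had no match. GTTAAT or its reverse complement stood in 6.23% of all windows, and TATAAA in 10.7%. A match is a description of letters and does not show a bound factor.

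The fibrinogen promoters were poor in CpG. FGB held 0 CpG in 250 bases, and FGA and FGG held 2 each, against a median of 11 over all promoter windows. Of all windows, 6.06% were as low as FGB and 22.9% as low as FGA and FGG. GC content was 33.2% for FGB, 45.2% for FGA and 50.8% for FGG, against a median of 58%.

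The window was more heavily marked than most stretches of the genome. Set beside 21663 consecutive windows of the same length, it stood highest for H3K4me3: its regions covered 15757 bases, or 11.3% of the window, 7.56 times the mean of 1.49%, and 1.38% of windows had as many bases or more. H3K27ac covered 17047 bases (12.2%, 4.01 times the mean), a level reached by 7.70% of windows. H3K4me1 covered 29175 bases (20.8%, 3.22 times the mean), reached by 10.1% of windows. By number of regions the order was different. The 18 H3K27ac regions were reached by 3.01% of windows, the 31 H3K4me1 regions by 6.25% and the 4 H3K4me3 regions by 10.2%. The mean number of H3K4me3 regions per window was 1.14. H3K4me3 thus stood out by the length of its regions more than by their number, by which it ranked lowest of the 3 marks. Its count and its bases both include a region of 2194 bases far from the fibrinogen starts. Most windows elsewhere carried little: 52.1% had no H3K27ac and 56.3% no H3K4me3. No window was left out for assembly gaps or lack of genes, whereas the fibrinogen window was placed on genes. Windows that cannot hold a region lower these means and raise the rank of the fibrinogen window.

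**Figure D1:**
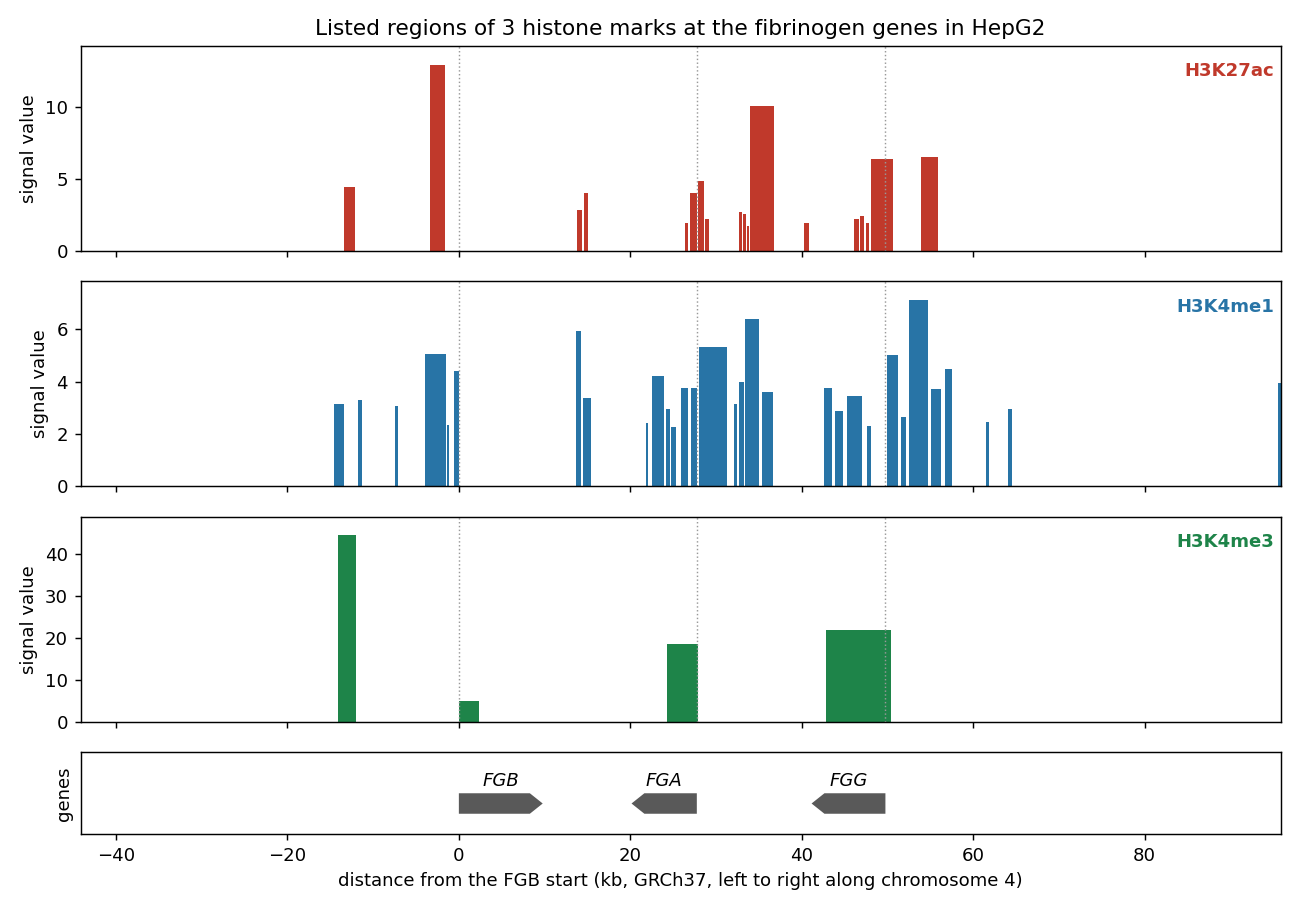
Regions of H3K27ac, H3K4me1 and H3K4me3 across the fibrinogen window, by distance from the FGB start in kb. Each bar spans a region and its height is the authors' signal value, dotted lines mark the 3 gene starts and arrows show the genes and their strands. The highest H3K27ac bar (12.96) stands left of FGB, and the widest H3K4me3 bar (7542 bp) runs along FGG.

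The signal values, which are the authors' own and serve here only to rank regions within a list, were moderate. The 18 H3K27ac regions ranged from 1.70 to 12.96 with a median of 2.79, against 3.15 for the whole list, and 0 of them exceeded 23.1, the level that the strongest 10% of the list exceed. The 31 H3K4me1 regions ranged from 2.25 to 7.13 with a median of 3.60, against 3.42 for the list, and 2 lay in its strongest 10%. The 4 H3K4me3 regions had values of 5.01, 18.7, 22.01 and 44.5, of which 3 exceeded the list median of 13.3 and 0 lay in its strongest 10%. The window thus held none of the strongest 10% of H3K27ac or H3K4me3 regions. With 18 and 4 regions, a count of 0 is not far from a 10% share, so it only describes the window.

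**Figure D2:**
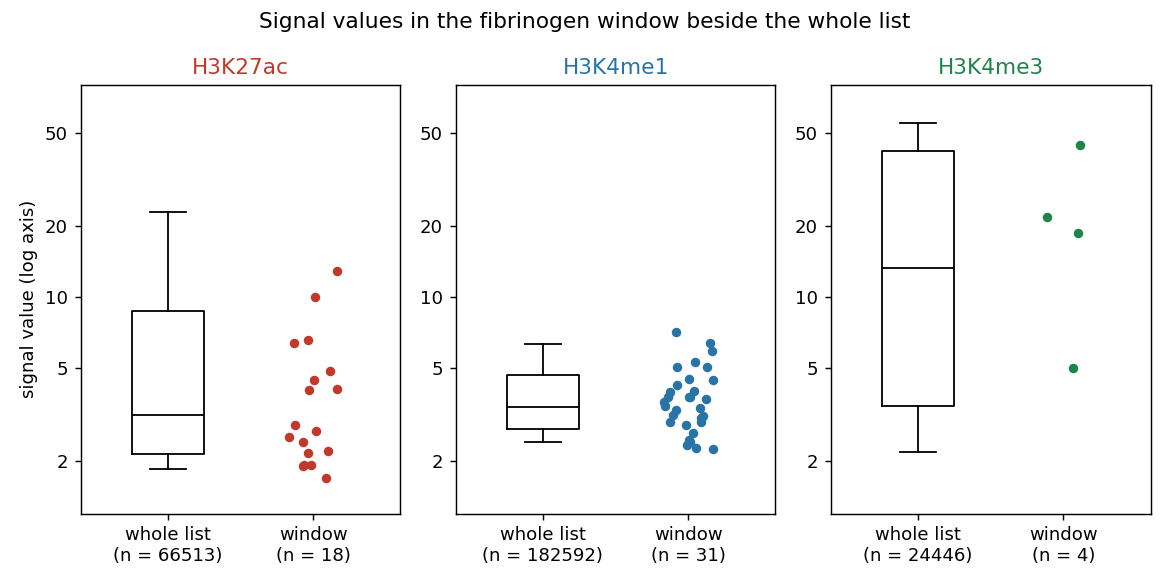
Signal value (log axis) of every region in the fibrinogen window, as points, beside the whole list of the same mark, as a box from the lower to the upper quartile with its median and with whiskers from the tenth to the ninetieth percentile. The 18 H3K27ac points lie below the upper whisker at 23.1, and the H3K4me3 points lie at 5.01, 18.7, 22.01 and 44.5.

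FGB encodes the beta chain and is the gene on the plus strand, read towards FGA and FGG. Its start lay outside any H3K27ac region. The nearest, chr4:155480747-155482518, ended 1614 bp upstream of it, and the first 13735 bp downstream of the start held none. No base of FGB's 9784 lay in an H3K27ac region. The upstream region was 1772 bp wide with its summit 2886 bp before the start. Its signal value of 12.96 was the highest of the 18 in the window and higher than that of 81.3% of the H3K27ac list. It lay wholly inside an H3K4me1 region (chr4:155480212-155482672, 2461 bp, signal value 5.04) and overlapped no H3K4me3. Among the 39769 H3K27ac regions that overlap H3K4me1 without H3K4me3, 95.5% had a lower signal value, the median being 2.62. The window's 9 regions of this class were spread widely by this share, at 95.5, 92.8, 85.9, 73.5, 56.6, 52.7, 47.1, 31.9 and 4.55%.

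H3K4me3 at FGB was the weakest of the window. Its region, chr4:155484155-155486534, began 23 bp downstream of the start and ran to 2402 bp, wholly inside the gene. The signal value was 5.01, which exceeded 33.8% of the H3K4me3 list. This region overlapped neither H3K27ac nor H3K4me1, as did 3.78% of all H3K4me3 regions. H3K4me1 lay just upstream instead, at chr4:155483616-155484136 (521 bp, signal value 4.42), from 516 bp before the start to 4 bp after it. The count of the FGB start as inside H3K4me1 therefore rests on the last 5 bases of that region. H3K4me1 before the start and H3K4me3 after it were separated by 18 bases.

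FGA encodes the alpha chain, from which thrombin releases the first fibrinopeptide. Its start lay inside regions of all 3 marks. H3K4me3 covered chr4:155508405-155512045 (3641 bp, signal value 18.7), from 148 bp upstream to 3492 bp downstream, and 54.6% of the list had a lower value. H3K27ac there was split into short regions. One of 858 bp (signal value 4.03) ran from 48 bp upstream to 809 bp downstream, and a neighbour of 723 bp (4.86) lay 140 to 862 bp upstream. The next, of 467 bp (2.18), lay 922 to 1388 bp upstream. The first pair was separated by a gap of 91 bp, 49 to 139 bp upstream of the start. H3K4me1 had a gap of 219 bp at the same place, from 12 to 230 bp upstream, between a region of 658 bp over the start (3.78) and a region of 3345 bp beyond the gap (5.32), the widest H3K4me1 member. Gaps this short also depend on how the peak caller joins neighbouring summits. If the starts of the builds are taken as the same base, each match in the FGA promoter printed above falls in the H3K4me1 gap. CTGGGA, 127 to 122 bases before the RefSeq start, also falls wholly in the H3K27ac gap. The TTNNGNAA match (141 to 134) and ATTAAC (52 to 47) fall in the H3K27ac gap in part. The distances between the FGB and FGA starts, 27765 and 27762 bp, differ between the builds. These placements at the gap edges are therefore uncertain by a few bases.

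FGG encodes the gamma chain, which carries sites where fibrin binds platelets. Its start lay inside H3K4me3 and H3K27ac but outside H3K4me1. The H3K4me3 region, chr4:155526998-155534539, was 7542 bp wide, from 637 bp upstream to 6904 bp downstream, and covered 80.1% of the gene. Its signal value was 22.01, above that of 57.1% of the list. By contrast only 81 of 24446 H3K4me3 regions (0.331%), this region included, were at least as wide. H3K27ac covered the start in a region of 2567 bp (chr4:155532218-155534784, signal value 6.40), from 882 bp upstream to 1684 bp downstream, with its summit 349 bp upstream. H3K4me1 was missing from 204 bp upstream to 1735 bp downstream, a gap of 1940 bp, and the region before it (1226 bp, signal value 5.04) ended 205 bp upstream. Start positions of the builds are not identical here: the FGB and FGG starts are 49770 bp apart in the spans used and 49676 bp apart in RefSeq GRCh38.p14, whereas for FGB and FGA the distances are 27765 and 27762 bp.

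**Figure D3:**
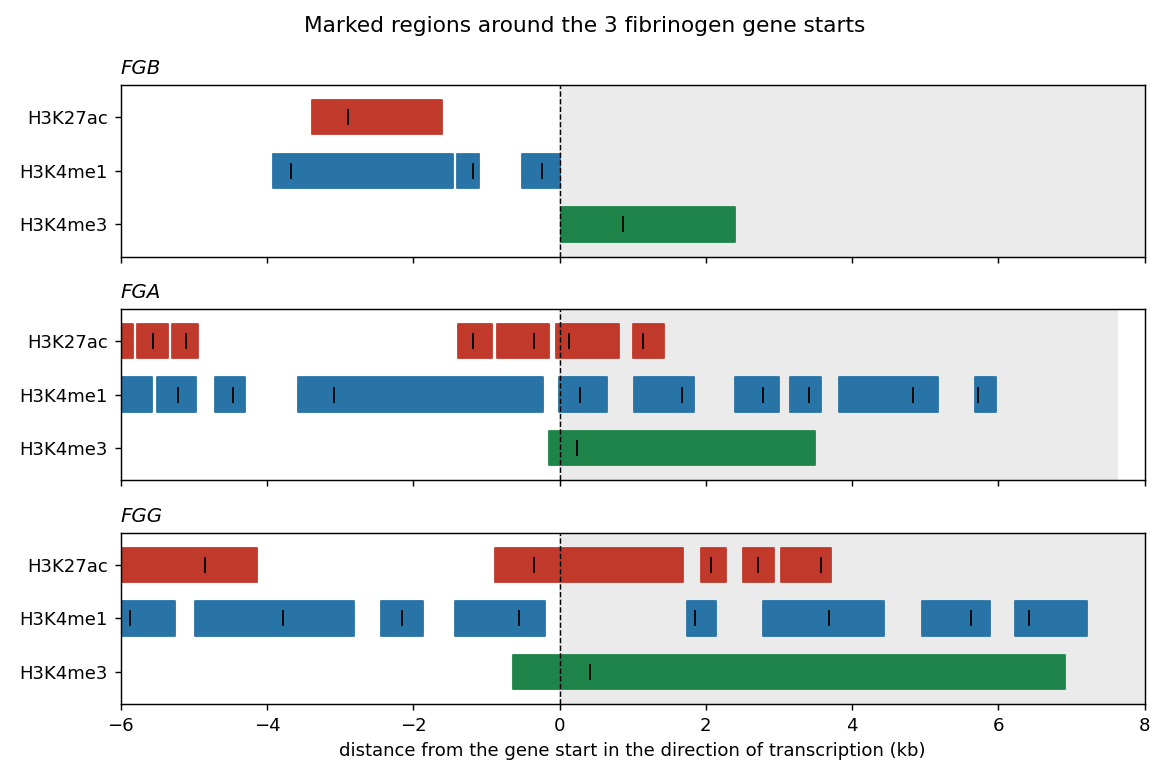
Regions of each mark from 6 kb upstream to 8 kb downstream of the FGB, FGA and FGG starts, in the direction of transcription, with summits as black ticks and the gene body shaded. H3K4me3 lies almost wholly downstream of each start, and H3K27ac covers the starts of FGA and FGG but ends 1614 bp before that of FGB.

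The 3 starts can be compared directly in these positions. H3K4me3 was one-sided at each of them: 100% of its region lay downstream of the start in FGB, 95.9% in FGA and 91.6% in FGG. Over 1000 bp on either side, H3K27ac covered 850 bp upstream and 810 bp downstream in FGA, 882 and 1000 bp in FGG, and 0 and 0 bp in FGB. Over 2000 bp it covered 1238 and 1237 bp in FGA, 882 and 1745 bp in FGG, and 387 and 0 bp in FGB, so that it was even in FGA and lay more downstream in FGG. H3K4me1 covered more of the 2000 bp upstream than of the 2000 bp downstream of each start. The covered lengths were 1354 and 5 bp in FGB, 1781 and 1472 bp in FGA, and 1360 and 264 bp in FGG. Of the 3 starts, 2 lay inside H3K27ac, 2 inside H3K4me3 and 2 inside H3K4me1. For H3K27ac and H3K4me3 these were FGA and FGG, and for H3K4me1 they were FGB and FGA, so that FGA was the gene with all 3 marks at its start.

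The H3K4me3 regions of FGA and FGG were wide for their signal value. Among the 621 H3K4me3 regions with signal values between theirs, the median width was 1881 bp (quartiles 1432 and 2358). Of these 621, 4.99% were at least as wide as the FGA region. Only 2 (0.322%), the FGG region included, were at least as wide as that of FGG. Seen the other way, among the 2352 H3K4me3 regions at least as wide as that of FGA, the median signal value was 50.7, and 2.85% were below FGA and 4.12% below FGG. H3K27ac regions covered 1294 bp (35.5%) of the FGA region and 3776 bp (50.1%) of the FGG region. The median over the 2352 wide regions was 95.0% (quartiles 87.0 and 99.6), and 0.808% and 1.74% of them, respectively, had as low a share. Over all 24446 H3K4me3 regions of any width the median H3K27ac share was 84.5%, and 25.2% and 28.7% were as low as FGA and FGG. Among the 621 regions of like signal value the median share was 78.5%, and 81 and 139 of them were as low as FGA and FGG. Their H3K27ac share was thus low beside regions at least as wide, and less so beside the whole list or regions of like signal value. Acetylation at FGG lay at the start, while the 3 further H3K27ac regions inside the gene had signal values of 2.21, 2.41 and 1.94 and widths of 337 to 685 bp. H3K4me1 covered 66.6% of the FGA region and 54.5% of the FGG region. The median H3K4me1 share was 33.1% over the wide regions, 53.2% over all H3K4me3 regions and 51.1% over those of like signal value, and 91.5%, 61.3% and 72.3% of these sets had shares as low as FGA or lower. For FGG they were 81.9%, 51.3% and 54.6%. These sets include the FGA and FGG regions themselves and were chosen after the values of the members were seen.

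**Figure D4:**
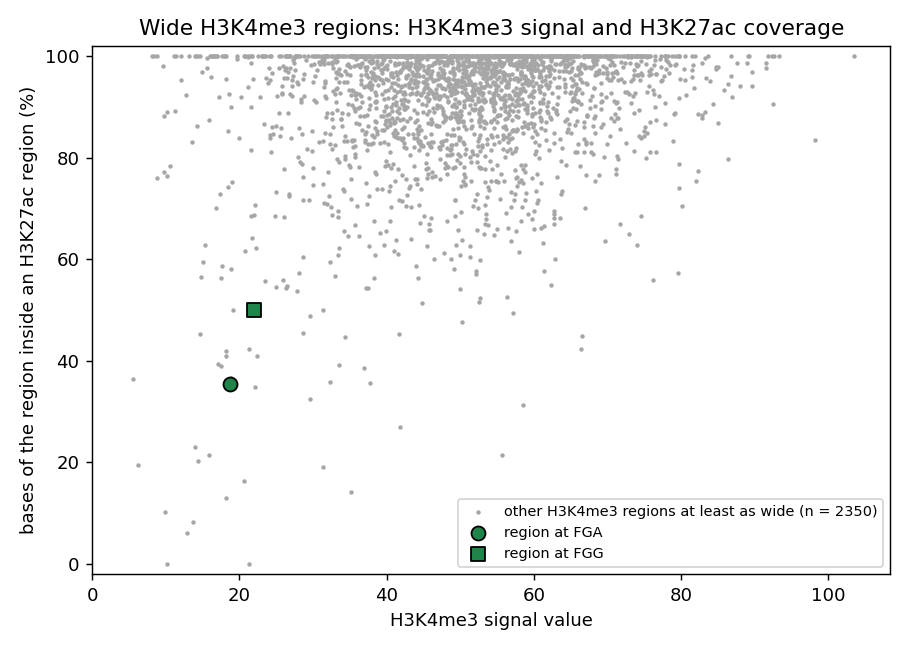
H3K4me3 signal value against the share of bases inside an H3K27ac region, for 2350 other H3K4me3 regions at least 3641 bp wide (grey) and for those at FGA and FGG. Most grey points lie at high signal values and near full coverage, while FGA (18.7, 35.5%) and FGG (22.01, 50.1%) lie at the lower left.

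Within the gene bodies, H3K4me3 covered 24.3% of FGB, 45.8% of FGA and 80.1% of FGG. H3K27ac covered 0% of FGB, 16.2% of FGA and 36.4% of FGG. H3K4me1 covered 0.0511% of FGB (5 bases), 54.5% of FGA and 46.3% of FGG. FGB was therefore the least covered of the 3 genes by each mark, and between FGA and FGG the order depended on the mark. From the end of its H3K4me3 region, FGB and the stretch beyond it carried no region of any mark for 11273 bp.

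The stretch between FGA and FGG was the most acetylated part of the window. Its 13388 bp were covered to 41.5% by H3K27ac and to 54.6% by H3K4me1, but to 1.11% by H3K4me3. Both genes are read on the minus strand, so this stretch lies upstream of FGA and downstream of FGG. It held 7 of the 18 H3K27ac summits. Its strongest region, chr4:155518159-155520948, had a signal value of 10.0, above 77.4% of the list, and at 2790 bp was the widest H3K27ac region of the window. It began 6262 bp upstream of the FGA start and overlapped H3K4me1 over 2324 bp and no H3K4me3. It was second in signal value among the window's 9 H3K27ac regions with H3K4me1 and without H3K4me3. Among all 39769 such regions of the list, 92.8% had a lower signal value and 92.6% were narrower. The H3K4me1 region that overlapped it on the FGA side, chr4:155517468-155519181, had the second highest H3K4me1 signal value of the window (6.39). Near the FGG end, chr4:155524452-155524934 (483 bp, signal value 1.93) was the only H3K27ac member that overlapped no other mark, as did 8.52% of the list. It was a weak call, with a −log10 q-value of 2.65 and a signal value above 13.7% of the list. A −log10 q-value of at least 5 removed it and left 13 H3K27ac regions, of which 13 overlapped H3K4me1.

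Upstream of FGG a further pair of regions followed. The H3K27ac region chr4:155538038-155540014 (1977 bp, signal value 6.54) lay 4136 to 6112 bp before the FGG start and overlapped H3K4me1 over 1693 bp without H3K4me3. The strongest H3K4me1 region of the window, chr4:155536709-155538881 (2173 bp, signal value 7.13, above 93.7% of the list), overlapped its FGG side. Between FGB and FGA, which end towards each other, marks were sparse. The 10362 bp there were covered to 10.8% by H3K27ac, to 14.4% by H3K4me1 and to 0% by H3K4me3. The marked part was a pair of acetylated regions (chr4:155497868-155498472 and chr4:155498707-155499220, signal values 2.87 and 4.06), each overlapping H3K4me1. The H3K4me1 region at the first of them, chr4:155497808-155498338, was only 531 bp wide but had the third highest H3K4me1 signal value of the window (5.92).

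**Figure D5:**
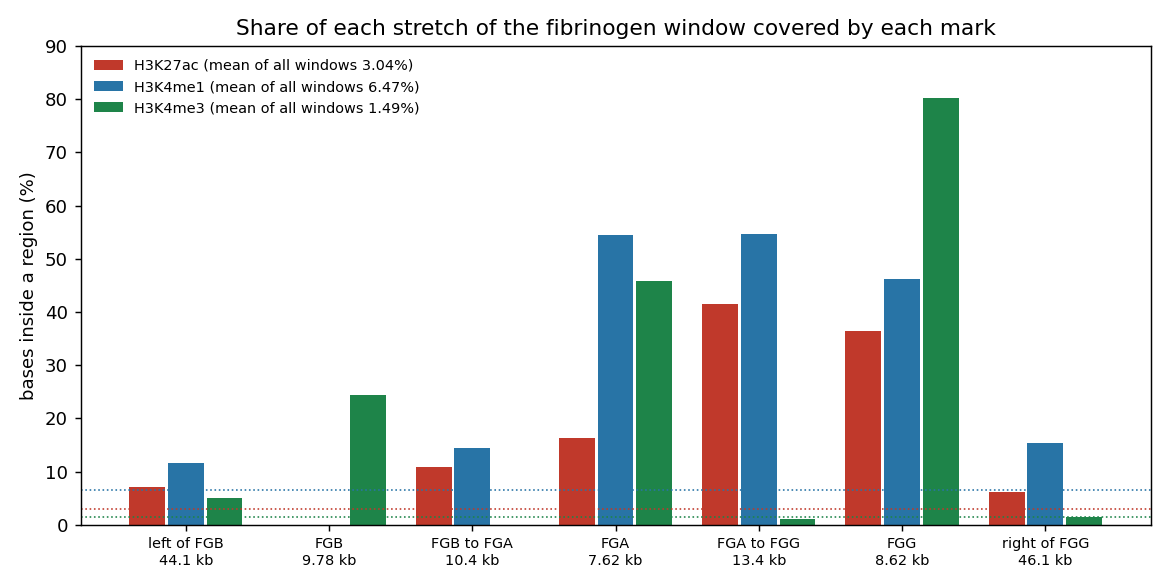
Share of bases inside a region of each mark, for the 3 genes, the stretches between them and the flanks of the window, with the mean over all windows of the same length as dotted lines. H3K4me3 is highest over FGG (80.1%), H3K27ac between FGA and FGG (41.5%), and FGB carries 24.3% H3K4me3 and 0% H3K27ac.

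The marks overlapped as follows. Of the 18 H3K27ac regions 17 overlapped H3K4me1, near the 87.4% of the whole list, and 8 overlapped H3K4me3, against 31.7%. Those 8 overlapped H3K4me1 as well (27.6% of the list overlaps both). The other 9 that overlapped H3K4me1 lacked H3K4me3, against 59.8% of the list. Among the 8 with both, chr4:155512037-155512759 shared only 9 bases with H3K4me3, and chr4:155470685-155472045 only 20 bases with H3K4me1. Of the 31 H3K4me1 regions 16 overlapped H3K27ac, against 33.4%. For the first of them the overlap was 20 bases. For the last it was 37 bases of an H3K27ac region that begins outside the window. H3K4me3 overlapped 10 of the 31, against 18.9%, and 11 overlapped neither mark, against 61.6%. Where at least 50% of a region had to be covered, 14 H3K27ac regions of the window overlapped H3K4me1 and 7 overlapped H3K4me3. At that setting 14 H3K4me1 regions overlapped neither mark. H3K4me1 with H3K4me3 and without H3K27ac was found in 4 regions (4.96% of the list), all of them inside the bodies of FGA and FGG. Of the 4 H3K4me3 regions 3 overlapped both other marks, against 74.1%, and the exception was that of FGB. With so few regions, which lie side by side and share their neighbours, these counts are a description of the window and not of a class.

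Joining H3K27ac regions at most 10000 bp apart gave a cluster of 29545 bp, chr4:155510470-155540014, with 14 regions covering 12795 bp. It reached from inside FGA over the whole of FGG to the region upstream of FGG and held the starts of FGA and FGG. Of the 24025 clusters formed in this way across the genome, 5.42% were longer and 5.33% had more covered bases, and the median length was 2542 bp. The strongest H3K27ac region, upstream of FGB, was not in it. That region joined only a region 12087 to 13447 bp upstream of the FGB start, in a cluster of 11834 bp. The length depended on the distance chosen: at 5000 bp the longest cluster was 14465 bp and held the FGA start alone, and at 20000 bp all 18 regions joined into 69330 bp.

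The strongest H3K4me3 region of the window did not belong to a fibrinogen start. It lay at chr4:155469979-155472172 (2194 bp, signal value 44.5), 11960 to 14153 bp upstream of the FGB start, and 78.1% of the list had a lower value. H3K27ac overlapped it over 1361 bp (chr4:155470685-155472045) with a signal value of 4.43, and H3K4me1 over 726 bp at its far side (3.16). In RefSeq GRCh38.p14 the next protein-coding gene on this side is PLRG1, a component of the spliceosome, whose start lies 12580 bp from that of FGB and which is read away from it. Its position in GRCh37 was not used here. The PLRG1 promoter window held 17 CpG, against 0 to 2 in the fibrinogen promoters. The H3K4me3 signal value at this region was thus above the 22.01 of FGG. Its H3K27ac signal value was below the 6.40 at the FGG start. It was above the 4.03 of the region over the FGA start, whose upstream neighbour had 4.86. The FGB start lay in no H3K27ac region.

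Beyond these regions the window was quiet. On the left the first H3K4me1 member began 29604 bp inside the window (chr4:155469604-155470704). The nearest regions outside that edge were an H3K4me1 region ending 26212 bp before it (signal value 6.81), an H3K4me3 region ending 26692 bp before it (2.46) and an H3K27ac region ending 878124 bp before it (7.09). On the right no region of any mark lay in the 31023 bp before chr4:155579721-155580889, an H3K4me1 region (3.93) that crosses the edge. Just outside followed an H3K27ac region 853 bp beyond it (1.85) and an H3K4me1 region 1517 bp beyond it (4.59), while the next listed H3K4me3 region began 1294340 bp away (21.4). The last H3K27ac member ended 39986 bp before that edge and the last H3K4me3 member 45461 bp before it, so a narrower window would drop H3K4me1 members first, and a right edge moved out by 853 bp would add an H3K27ac region.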

How the data were processed

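ChIP-seq peak lists of H3K27ac, H3K4me1 and H3K4me3 in HepG2 cells were analysed, 1 per mark, pooled over 3 libraries going by their names. Per the submitters' processing notes, MACS2 and build hg19 (GRCh37) were used. The version, the threshold, the aligner and the use of the control are not given in the sources used here. The deposited lists give, for each peak, a signal value, the −log10 of its q-value, a score (not used) and the summit offset. What the signal value is relative to is not stated, and a longer or wider list can follow from deeper libraries.

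Positions were counted from 1. Regions overlapped with at least 1 bp in common. Gene spans were those of the rule that chose the window, and no other gene positions of this build were used, so the marks at the 15 listed coagulation genes and at hepatocyte markers were not analysed here. Percentiles are shares of the same list. Windows of 140001 bp were laid end to end over chromosomes 1 to 22 and X up to the last listed region. Promoter sequences are RefSeq's (GRCh38.p14), and 3 of 3 genes matched by symbol. Regions named were those within 1000 bp of a start, the 3 strongest and 3 widest per list, and those at the window's edges; others were chosen after their values were seen. The window, genes and lists were chosen with earlier results of these data known. The region functions were checked on simulated regions. Python 3.11.15, numpy 2.4.6 and matplotlib 3.10.9 were used.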

Additional observations from a re-analysis of the deposited data

How the results depend on the processing

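No paired analysis was possible because the lists are pooled over the replicates and no test was made. For 13 results, 47 alternative values were computed, all of them planned. Of these, 31 stayed within 1.5 times the main value and 16 did not. The lists' stronger 50% left 8 H3K27ac and 17 H3K4me1 regions. Of those H3K27ac regions 4 overlapped H3K4me3 and 6 overlapped H3K4me1, and 6 H3K4me1 regions overlapped neither other mark. Joining peaks within 1000 bp gave 8 H3K27ac and 11 H3K4me1 regions, with 3 H3K27ac regions overlapping H3K4me3, 7 overlapping H3K4me1 and 4 H3K4me1 regions overlapping neither. A −log10 q-value of at least 5 left 5 H3K27ac regions that overlapped H3K4me3. Keeping only regions whose summit lay between the outer gene ends left 17 H3K4me1 regions, with 16940 bases, and 9370 bases of H3K27ac, which drops the strongest H3K27ac region. The acetylated cluster was 14465 bp with joining at 5000 bp and 69330 bp at 20000 bp. Fewer regions follow from how these alternatives are built. At each threshold run, 2 starts lay inside each mark. Allowing a region within 1000 bp of a start raised this to 3 for H3K4me1 and H3K4me3, and left it at 2 for H3K27ac. Depth and replicate spread are unknown, so no limit on what the lists miss can be given: a base outside a region was not called, which does not show that it lacks the mark.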

Other observations

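Of 15 other liver genes of coagulation and fibrinolysis, 13 were in the RefSeq promoter table (SERPINC1 and SERPINF2 were not). Their promoter windows of 250 bases were poor in CpG as well, with 1 to 9 and a median of 3, against a median of 11 over all promoter windows. CTGGGA was present in 6 of the 13, TTNNGNAA in 6, GTTAAT in 2 (F2, which encodes prothrombin, and F13B) and TATAAA in 1 (F13B, a subunit of the factor that crosslinks fibrin). In the fibrinogen promoters the same letters were present in 3, 3, 2 and 0 of 3. Over all 35116 promoter windows the shares were 28.7%, 33.2%, 6.23% and 10.7%. With so few genes, these counts are a description only.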
